A study of Homo sapiens with 24 samples.

Results

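The genes described here are 9 transcription factors that specify lung and endoderm lineages, namely FOXA1, FOXA2, FOXA3, GATA6, NKX2-1, TP63, SOX2, SOX9 and ELF3. They were chosen by name, and the counts of all their transcripts were summed for each gene. Their 31 transcripts are among the 119207 in the deposited table, and they make up 9 of the 33127 genes to which transcripts could be joined. A549, an established cell line from a human lung adenocarcinoma, was exposed to 100 nM dexamethasone (dex) or to the vehicle ethanol (EtOH) alone. Dex is a synthetic glucocorticoid (GC) that activates the glucocorticoid receptor (GR). Ethanol was at 0.02% under both treatments. Poly-A RNA was sequenced after 1, 3, 5, 7, 9 and 11 h, with 2 libraries for each treatment and time, which makes 24 libraries in 12 groups. Each dex group therefore had EtOH libraries of the same hour, and no EtOH library served 2 time points. All groups are the same unmodified tumour line, so they hold no normal lung tissue and no second genetic background. The library totals ran from 6708864 to 13748598 counts, with a median of 10109393.5.

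Lineage factors of this kind bind the enhancers of many tissue genes at once. The FOXA proteins are winged-helix pioneer factors, which can bind their sites in closed chromatin and are needed to form organs of the foregut endoderm, and GATA6 is a zinc-finger factor that acts with them in lung, gut and liver. NKX2-1 is the homeodomain factor of lung and thyroid and switches on surfactant genes. In the airway, SOX2 marks the proximal epithelium and TP63 marks basal stem cells, while SOX9 marks the distal tip progenitors of the embryonic lung. ELF3 belongs to the ETS family and is expressed in differentiating epithelia. GR bound to a GC acts at many of the same enhancers in epithelial cells.

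The counts of 8 of the 9 factors sufficed for a test. Of these, 6 passed the filter on low counts in either treatment alone, and all 6 were called lower with dex than with EtOH when the 6 time points were averaged, where 18.9% of all 15337 tested genes were. FOXA3 and SOX2, which passed only through their EtOH libraries, were lower too, but that choice of libraries favoured this direction. TP63 was at 30.2% of its EtOH level at 3 h and at 16.8% at 11 h. FOXA1, FOXA2, GATA6 and SOX9 lay between 31.9% and 69.7% of EtOH from 3 h on. The lowest of these values, that of GATA6 at 7 h, moved with single dex libraries, from a log2 fold change of -1.52 to -1.01 without replicate 2 and to -2.79 without replicate 1. ELF3 had already fallen at 1 h, to 45.6% of EtOH, stood at the EtOH level at 5 h and was low again from 7 h on. The ninth, NKX2-1, was almost silent in every library. In bulk RNA, fewer cells that express a gene and less of its RNA per cell cannot be told apart.

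**Figure D1:**
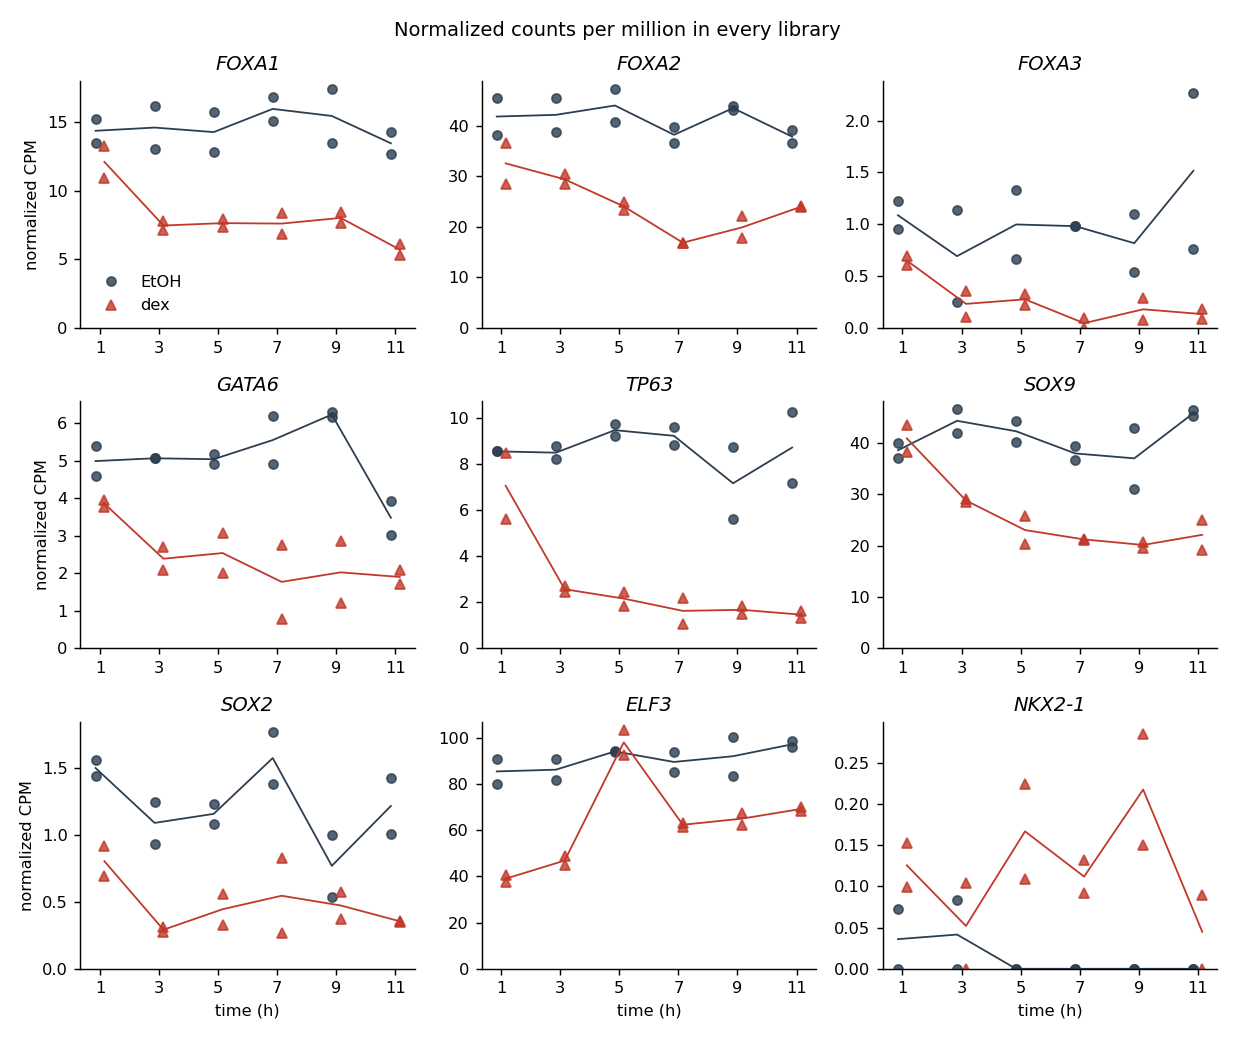
Normalized CPM (counts as a rate of the library total after TMM scaling, linear axis from 0) of each factor against time in hours, with 1 point for each of the 24 libraries (circles, EtOH; triangles, dex) and lines through the means of the 2 libraries. From 3 h on, the dex libraries lie below the EtOH libraries of the same hour for FOXA1, FOXA2, GATA6, TP63 and SOX9. ELF3 meets its EtOH level at 5 h, and NKX2-1 stays below 0.3 CPM.

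Several checks describe the libraries before the factors are taken up. Known GR targets were used to check the labels. All 9 tested genes of a list of 10 were higher at 2 or more consecutive time points, and TSC22D3, which encodes the GC-induced leucine zipper, had 7.63 ± 1.21 CPM (SD, n = 12) with EtOH and a mean of 130.5 CPM with dex. The epithelial keratin KRT18 was the most abundant of 12 markers of the line, at a mean of 2238 CPM with EtOH. Among defining markers of other lineages, CD3E and HBB had no count, and PTPRC, VWF, COL1A2 and HBA1 never had more than 3 counts in a library. Other markers were counted, with 16.4 CPM of the collagen COL1A1, 4.61 of the macrophage marker CD68 and 2.68 of the smooth muscle myosin MYH11 in the mean of the EtOH libraries, and up to 24 counts of GFAP in a library. The summed level of all 17 such markers counted here was 48.3 to 78.9 CPM in the EtOH libraries and 41.8 to 75.6 CPM in the dex libraries, with the tubulin TUBB3 the most abundant. The part of these markers in the results was not tested. Replicates of a group correlated at 0.984 to 0.991 (Pearson's r of log2 CPM across genes), and the pair in each group differed by more than sampling noise. Nothing in the labels states that the 2 replicates came from separate cultures, so p-values measure the spread between these libraries, which may be technical.

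The label of lung lineage was borne out only in part. NKX2-1 had 2 counts over the 12 EtOH libraries and 13 counts over the 12 dex libraries, never more than 2 in a library. The surfactant gene SFTPC, which NKX2-1 is known to activate, had 4 counts in all, SFTPD had no library above 3 counts, and SFTPB had 63 counts over the 24 libraries. Of the 17 listed genes of alveolar type 2 cells, 7 had enough counts to be tested. In the mean of the EtOH libraries, the surfactant lipid transporter ABCA3 had 30.4 CPM and the surfactant lipid enzyme LPCAT1 had 141.9 CPM. NAPSA, SLC34A2 and LAMP3 had 0.66, 0.21 and 0.20 CPM in the same mean, and SFTPA1, SFTPA2 and LPL had no count. The label therefore did not hold for NKX2-1. Among the other factors, ELF3 and FOXA2 stood above 85.9% and 70.7% of all tested genes in their EtOH level per kilobase of transcript. FOXA3 and SOX2 were low on that scale, above 8.9% and 7.7%.

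Levels with EtOH spanned a wide range. On a scale of normalized CPM per kilobase of transcript, ELF3 was the highest at 38.9 ± 3.69 (SD over the 12 EtOH libraries, as for the other genes here), above 85.9% of all tested genes. FOXA2 followed at 17.1 ± 1.52 and SOX9 at 10.4 ± 1.17. FOXA1 stood at 5.49 ± 0.64, below the median of 7.00 for tested genes. TP63 was at 2.69 ± 0.48 and GATA6 at 1.495 ± 0.265 per kilobase. The lowest measurable factors were FOXA3, at 0.55 ± 0.24, and SOX2, at 0.48 ± 0.13, and on this scale only these neighbours in the order had overlapping spreads. With the length of the longest transcript instead, the order was the same but some neighbours lay closer. ELF3 was then at 18.2 beside FOXA2 at 17.05, and TP63 at 1.75 beside GATA6 at 1.34. Across the 12 dex libraries, which span the time course, the per-kilobase means were 27.0 ± 9.24 for ELF3, 10.2 ± 2.45 for FOXA2, 6.61 ± 1.98 for SOX9 and 3.14 ± 0.83 for FOXA1. TP63, at 0.87 ± 0.61, had come down to the level of GATA6, at 0.71 ± 0.29.

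Among EtOH libraries alone no factor was called as changing over time. The lowest adjusted p was 0.329, for GATA6, and 0 of the 8 had an unadjusted p under 0.05 (edgeR's quasi-likelihood F-test over the 12 EtOH libraries with Benjamini-Hochberg adjustment, where 3.33% of all genes were called). Without replicate 1 of EtOH at 9 h, SOX9 was called in this test, at an adjusted p of 0.0515.

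FOXA1 (ENSG00000129514.5) lies on chromosome 14 from 37589984 to 37596059 on the minus strand (GRCh38, GENCODE 29, as for all positions here). The 12 EtOH libraries held 12.7 to 17.4 CPM with a median of 14.7. The dex libraries held 13.2 and 10.9 CPM at 1 h, 7.16 and 7.75 at 3 h, 7.32 and 7.95 at 5 h, 8.34 and 6.86 at 7 h, 8.41 and 7.62 at 9 h, and 6.12 and 5.29 at 11 h. From 3 h on every dex library was lower than every EtOH library of the course. The log2 fold change was -0.24 (SE 0.19, adjusted p = 0.924) at 1 h and -0.97 (SE 0.18, adjusted p = 0.000369) at 3 h by edgeR's quasi-likelihood test and Benjamini-Hochberg adjustment, which gave all adjusted p-values below unless another is named. The value at 1 h ran from -0.395 without replicate 1 of dex to -0.12 without replicate 2. From 5 h on the fold change stayed between -0.91 and -1.23 on this scale, and FOXA1 passed the threshold of 0.1 at every time from 3 h to 11 h.

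FOXA2 (ENSG00000125798.14, chromosome 20 from 22581005 to 22585455, minus strand) was the most abundant of the FOXA genes. EtOH libraries lay between 36.6 and 47.4 CPM with a median of 40.3. With dex they were 28.5 and 36.6 CPM at 1 h, 28.4 and 30.4 at 3 h, 23.3 and 24.9 at 5 h, 16.9 and 16.9 at 7 h, 22.1 and 17.7 at 9 h, and 24.1 and 23.9 at 11 h. The level therefore descended in steps, to 44.1% of EtOH at 7 h, and was nearer to EtOH again at 11 h, at 63.4%. The log2 fold change went from -0.52 (SE 0.13, adjusted p = 0.00588) at 3 h to -1.18 (SE 0.12, adjusted p = 1.96e-10) at 7 h and was -0.66 (SE 0.16, adjusted p = 0.0247) at 11 h. At 1 h it was -0.37 (SE 0.15, adjusted p = 0.591) and moved with single libraries. Without replicate 1 of dex it was -0.195 (adjusted p = 0.729), without replicate 2 of dex -0.555 (adjusted p = 0.0185), and without replicate 1 or 2 of EtOH -0.49 and -0.24. The call at 11 h was lost without either EtOH library (adjusted p = 0.442 without replicate 1 and 0.252 without replicate 2), and that at 3 h without replicate 2 of EtOH (adjusted p = 0.108).

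FOXA3 (ENSG00000170608.2, chromosome 19 from 45863989 to 45873797, plus strand) was rare. It had 3 to 18 counts in an EtOH library and 0 to 7 in a dex library. Summed over 3 to 11 h, 17 counts with dex stood against 97 with EtOH, which is 17.9% of EtOH after scaling for depth (95% exact interval of the counts 10.0% to 30.1%, counting error only). At 7 h, 1 count stood against 20, or 5.5% (0.1% to 34.4%), and at 11 h, 3 counts against 25, or 9.1% (1.8% to 29.8%). Both values moved with single libraries. The log2 fold change at 7 h, -3.895, was -6.21 without replicate 1 of dex and -3.26 without replicate 2. That at 11 h, -3.36, was -2.42 without replicate 1 of EtOH and -3.97 without replicate 2. The gene passed the threshold at 5, 7, 9 and 11 h (adjusted p = 0.0735, 0.00269, 0.0852 and 0.0254). It entered the tests only through its EtOH libraries, so a difference was built into its selection. Leaving out a library ended the call at 5 h for 3 of the 4 libraries, at 9 h for replicate 2 of either treatment and at 11 h for replicate 1 of EtOH (adjusted p = 0.315).

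The FOXA1 promoter is shown because FOXA1 was called lower at every hour from 3 h on. The line holds 150 bases upstream of the RefSeq start (chr14:37595350-37595499, GRCh38.p14, minus strand, from 250 to 101 bases before the start, overlapped by no annotated exon), 5′ to 3′, with the GC box GGGCGG in capitals.
FOXA1: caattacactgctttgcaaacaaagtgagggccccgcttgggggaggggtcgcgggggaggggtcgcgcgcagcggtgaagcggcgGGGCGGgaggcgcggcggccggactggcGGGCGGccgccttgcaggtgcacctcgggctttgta
The motif GGGCGG, searched on both strands, was in the 300-base windows of FOXA1, FOXA3, NKX2-1 and SOX2 and in 45.0% of all 35116 RefSeq promoter windows. Neither the GR half-site TGTTCT nor the forkhead motif TGTTTAC occurred letter for letter in the windows of FOXA1 and FOXA3. Only exact matches were searched, so variants of these motifs were not counted. The window of FOXA1 had 69.3% G and C. RefSeq promoters were matched for 7 of the 9 factors, all except FOXA2 and SOX9.

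GATA6 (ENSG00000141448.8, chromosome 18 from 22169443 to 22202528, plus strand) was called lower at 3, 5, 7 and 9 h. Its EtOH libraries held 3.02 to 6.30 CPM with a median of 5.06. The dex libraries held 3.75 and 3.95 CPM at 1 h, 2.70 and 2.07 at 3 h, 3.06 and 2.02 at 5 h, 2.75 and 0.79 at 7 h, 2.85 and 1.20 at 9 h, and 2.10 and 1.70 at 11 h. In each hour both dex libraries were below both EtOH libraries, although the dex replicates at 7 h, with 30 and 6 counts, lay far apart. The log2 fold change was -1.09 (SE 0.28, adjusted p = 0.00906) at 3 h and reached -1.76 (SE 0.34, adjusted p = 0.00284) at 9 h. The value at 9 h was -1.12 (adjusted p = 0.0952) without replicate 2 of dex and -2.37 without replicate 1, and that at 7 h, -1.52 (SE 0.33, adjusted p = 0.000763), was -1.01 (adjusted p = 0.0696) and -2.79 likewise. At 11 h, when the EtOH libraries were also at their lowest, it was -0.87 (SE 0.34, adjusted p = 0.198), and -1.03 (adjusted p = 0.0556) without replicate 1 of dex. DESeq2 did not call GATA6 at 3 h or 5 h (adjusted p = 0.127 and 0.141), and without replicate 2 of dex at 5 h edgeR did not either (adjusted p = 0.182).

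NKX2-1 (ENSG00000136352.17, chromosome 14 from 36516392 to 36521149, minus strand) did not pass the filter on low counts. Of the 12 dex libraries, 10 held 1 or 2 counts, and of the 12 EtOH libraries, 2 held 1 count. The depth-scaled ratio of dex to EtOH was 7.10 with a 95% exact interval of the counts from 1.61 to 64.8, which covers counting error only. Each library was below the 3 counts taken as the floor of detection, so the gene is given here as near silent under both treatments. NKX2-1-AS1 and SFTA3, its neighbours, had no count.

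TP63 (ENSG00000073282.12, chromosome 3 from 189631416 to 189897279, plus strand) was low in every dex library from 3 h on. The EtOH libraries held 5.60 to 10.3 CPM, with a median of 8.76. The dex libraries held 8.49 and 5.63 CPM at 1 h, 2.70 and 2.44 at 3 h, 1.86 and 2.46 at 5 h, 2.20 and 1.05 at 7 h, 1.85 and 1.495 at 9 h, and 1.31 and 1.61 at 11 h. At 1 h the replicates with dex lay on both sides of 7 CPM, and from 3 h on none of the 10 dex libraries reached 3 CPM. The log2 fold change was -0.24 (SE 0.23, adjusted p = 0.942) at 1 h, -1.72 (SE 0.25, adjusted p = 6.35e-06) at 3 h and -2.57 (SE 0.32, adjusted p = 0.000212) at 11 h. The value at 1 h was -0.60 without replicate 1 of dex and -0.01 without replicate 2, and was not called either way. In percent of EtOH, the course ran 82.5, 30.2, 22.8, 17.6, 23.4 and 16.8. The log2 fold change at 7 h, -2.42 (SE 0.28, adjusted p = 4.15e-09), was -3.11 without replicate 1 of dex and -2.06 without replicate 2. TP63 stayed called from 3 h to 11 h when any 1 library was left out.

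The TP63 promoter is shown because TP63 too was called lower from 3 h to 11 h. These 250 bases, overlapped by no annotated exon, end at a RefSeq start (chr3:189631139-189631388, GRCh38.p14, plus strand, 5′ to 3′). Capitals mark the only match to the GR half-site, read on the minus strand as TGTTCT.
TP63: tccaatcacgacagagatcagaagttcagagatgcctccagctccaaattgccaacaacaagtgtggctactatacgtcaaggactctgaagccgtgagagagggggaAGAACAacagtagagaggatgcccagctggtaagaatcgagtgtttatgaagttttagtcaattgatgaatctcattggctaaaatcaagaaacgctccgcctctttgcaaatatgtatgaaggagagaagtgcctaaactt
The match starts 142 bases before the start. TP63 was the only one of the 7 factors with TGTTCT in its 300-base window, and 14.8% of all promoter windows hold it. With 43.7% G and C, the TP63 window was poorer in these bases than those of the other factors, and 18.1% of all windows were poorer still. A match is a description of these letters, and binding of GR was not measured here. The gene is transcribed from more than 1 start. This window covers 1 of them, the only start matched for TP63 here, and other starts were not examined.

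TP63 encodes long and short amino-terminal forms with different ends, and its 12 transcripts in the table shared the counts unevenly. ENST00000264731 and ENST00000354600 held 36.4% and 35.1% of the gene's counts with EtOH and 40.3% and 29.4% with dex. Over 3 to 11 h, ENST00000264731 stood at 23.6% of its EtOH level and ENST00000354600 at 17.4%. Reads that match several transcripts may have been placed on any of them, so these shares describe the table and not the forms.

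SOX9 (ENSG00000125398.6, chromosome 17 from 72121020 to 72126420, plus strand) started level with EtOH and fell later. Its EtOH libraries held 31.0 to 46.7 CPM with a median of 41.0. With dex it had 43.6 and 38.2 CPM at 1 h, 29.1 and 28.5 at 3 h, 25.8 and 20.3 at 5 h, 21.2 and 21.2 at 7 h, 20.7 and 19.6 at 9 h, and 25.0 and 19.2 at 11 h. The groups overlapped at 1 h, and at each later hour both dex libraries were below both EtOH libraries. The log2 fold change was 0.09 (SE 0.14, adjusted p = 0.987) at 1 h, -0.62 (SE 0.13, adjusted p = 0.000795) at 3 h and -1.05 (SE 0.17, adjusted p = 0.00203) at 11 h. Every call from 3 h to 11 h held when any 1 library was left out.

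SOX2 (ENSG00000181449.3, chromosome 3 from 181711924 to 181714436, plus strand) had 6 to 20 counts in an EtOH library and 2 to 9 in a dex library. It passed at 3 h (log2 fold change -1.88, SE 0.63, adjusted p = 0.0537) and at 7 h (-1.39, SE 0.54, adjusted p = 0.0567) and not at the other hours. Over 3 to 11 h, 42 counts with dex stood against 118 with EtOH, or 36.3% after scaling for depth (95% exact interval of the counts 24.9% to 52.0%). Both calls were lost when single libraries were left out, at 3 h for 3 of the 4 libraries and at 7 h likewise. The value at 7 h became -2.51 without replicate 1 of dex and -0.92 without replicate 2. In 1 fit over all 24 libraries, SOX2 was also called at 5 h and 11 h. Like FOXA3, SOX2 entered the tests only through its EtOH libraries. Its overlapping transcript SOX2-OT, with 316 counts with EtOH and 326 with dex, was not called over the course (mean log2 fold change 0.20, SE 0.13, adjusted p = 0.276).

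ELF3 (ENSG00000163435.15, chromosome 1 from 202007945 to 202017188, plus strand) was low first and briefly returned. EtOH libraries held 80.0 to 100.4 CPM with a median of 92.3. The dex libraries held 37.3 and 40.6 CPM at 1 h, 48.9 and 44.7 at 3 h, 103.5 and 92.4 at 5 h, 61.4 and 63.2 at 7 h, 67.6 and 62.3 at 9 h, and 70.2 and 68.1 at 11 h. At 5 h, replicate 1 thus stood just above the highest EtOH library and replicate 2 among them, and the other 10 dex libraries were below every EtOH library. In percent of EtOH the level was 45.6 at 1 h, 54.4 at 3 h, 104.1 at 5 h, 69.6 at 7 h, 70.6 at 9 h and 71.2 at 11 h. The log2 fold change was -1.14 (SE 0.13, adjusted p = 2.11e-05) at 1 h, -0.88 (SE 0.11, adjusted p = 9.89e-07) at 3 h, 0.06 (SE 0.11, adjusted p = 0.78) at 5 h and -0.52 (SE 0.09, adjusted p = 2.09e-05) at 7 h. The 95% interval at 5 h ran from -0.15 to 0.27. At 9 h and 11 h the values were -0.50 (adjusted p = 0.0149) and -0.49 (adjusted p = 0.0524), and these 2 calls were lost without either dex library at 9 h and without either EtOH library at 11 h.

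The 4 ELF3 transcripts were each below their EtOH level when averaged over 3 to 11 h, which includes 5 h, when the gene was at 104.1%. In that average they stood at 70.6% to 80.3% of EtOH. The most counted, ENST00000367284, held 46.9% of the counts with EtOH and 47.5% with dex. As for TP63, reads that match several transcripts may have been placed on any of them. The RefSeq promoter window of ELF3 held the TATA box TATAAA, searched on both strands, 34 bases before the start, where 11.5% of all promoter windows hold these letters at any position. It held neither TGTTCT nor TGTTTAC.

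**Figure D2:**
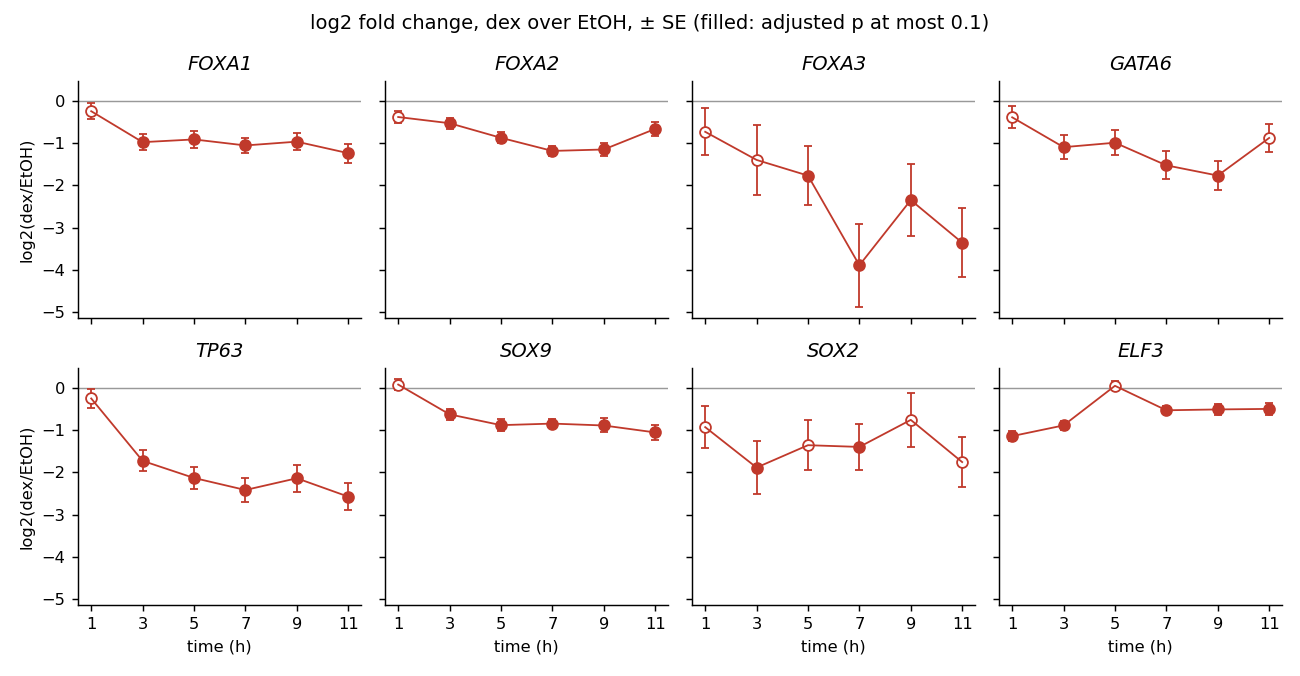
log2 fold change of dex over EtOH (vertical axis) against time in hours for the 8 tested factors, with bars for 1 SE from edgeR's quasi-likelihood fit of 2 against 2 libraries and filled points where the adjusted p was at most 0.1. TP63 moves from -0.24 at 1 h to -2.57 at 11 h, and ELF3 from -1.14 at 1 h to 0.06 at 5 h.

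Across the 6 comparisons, in order of time, 1, 7, 6, 8, 7 and 6 of the 8 tested factors were called lower, and none was called higher. Of all 15337 tested genes, 0.411%, 5.81%, 12.6%, 14.0%, 9.59% and 3.53% were called lower in the same order. The median log2 fold change of the 6 factors that passed the filter in either treatment alone was -0.31 at 1 h, -0.93 at 3 h and -1.11 at 7 h, beside medians of all genes of 0.00, 0.00 and -0.01. Since FOXA3 and SOX2 passed the filter only through EtOH, the counts were also taken with a filter on the mean over all 24 libraries, at least 10 counts, which was chosen after seeing the data and kept 6 factors. Of these 6, 1, 6, 5, 6, 6 and 5 were called lower. At 11 h, leaving out replicate 1 of EtOH reduced the 6 calls to 3 and leaving out replicate 2 reduced them to 4.

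Averaged over the 6 time points in 1 fit of all 24 libraries, all 8 factors were called lower, where 18.9% of all genes were. Without FOXA3 and SOX2, whose selection through EtOH favoured that direction, the count was 6 of 6. The mean log2 effect was -2.25 for FOXA3 (SE 0.35, adjusted p = 8.28e-06), -1.87 for TP63 (SE 0.12, adjusted p = 1.85e-13) and -1.34 for SOX2 (SE 0.21, adjusted p = 1.17e-05). It was -1.10 for GATA6 (SE 0.14, adjusted p = 2.28e-07), -0.89 for FOXA1 (SE 0.08, adjusted p = 1.18e-10) and -0.79 for FOXA2 (SE 0.06, adjusted p = 3.46e-12). SOX9, at -0.70 (SE 0.06, adjusted p = 2.09e-10), and ELF3, at -0.58 (SE 0.04, adjusted p = 1.67e-11), had the smallest mean decreases. All 8 remained called when any 1 of the 24 libraries was left out.

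Whether the dex effect of a gene differed between the 6 time points was tested in the same fit, and 5 of the 8 factors were called, where 15.4% of all genes were. ELF3 had the lowest adjusted p (6.03e-05), followed by TP63 (0.00037), SOX9 (0.00261), FOXA2 (0.0153) and FOXA1 (0.0897). The FOXA1 call was lost in 13 of the 24 fits that left out 1 library, with an adjusted p of up to 0.424, without replicate 1 of dex at 1 h, and also without a filter on low counts (0.111). The calls of the other 4 held in all 24. GATA6 (adjusted p = 0.284, and 0.0571 without replicate 1 of dex at 7 h), FOXA3 (0.381) and SOX2 (0.814) did not pass, which does not show that their effects were the same at every hour.

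Genes beside the factors were read from the annotation, within 10 kb. LINC00261, a long noncoding RNA next to FOXA2 on the same strand, had a mean log2 effect of -0.87 (SE 0.12, adjusted p = 1.15e-06), close to the -0.79 of FOXA2. TTC6, which overlaps FOXA1 on the opposite strand, was at -1.25 (SE 0.31, adjusted p = 0.00211) with 125 counts with EtOH and 47 with dex. Near ELF3, the antisense ELF3-AS1 was at -0.53 (SE 0.19, adjusted p = 0.0325) and the sense intronic AL691482.3 at -0.68 (SE 0.18, adjusted p = 0.00319). The sources used here do not give whether strand entered the counting, so reads of overlapping genes may not be told apart. Other neighbours did not pass. SOX9-AS1 was at 0.00 (SE 0.21, adjusted p = 1), RNPEP next to ELF3 at 0.02 (SE 0.09, adjusted p = 0.905), and SYMPK and IRF2BP1 next to FOXA3 at 0.02 (adjusted p = 0.817) and -0.15 (adjusted p = 0.273).

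Relatives of the factors were read from lists of their families, with a gene counted when it passed in 1 direction at 2 or more consecutive time points. By that count 7 of the 8 tested factors were lower and 0 higher, beside 9.68% and 10.5% of all tested genes. Without FOXA3 and SOX2, which entered only through EtOH, 6 of 6 were lower. Of 11 other tested forkhead genes, 3 were lower and 0 higher. FOXQ1, an epithelial forkhead gene, had a mean log2 effect of -1.09 (SE 0.13, adjusted p = 8.23e-08) and was at -2.03 at 5 h. FOXF2, better known from lung and gut mesenchyme, had -0.77 (SE 0.10, adjusted p = 6.99e-07), and the proliferation factor FOXM1 had -0.18 (SE 0.04, adjusted p = 0.00201). FOXC1 was also called lower in the mean effect, at -0.56 (SE 0.08, adjusted p = 1.25e-06), but not at consecutive times. The same held for FOXN3 and FOXK1, at -0.17 each (adjusted p = 0.012 and 0.013). FOXP1 and FOXP4, which act in lung epithelium, had mean effects of -0.11 (adjusted p = 0.381) and 0.07 (adjusted p = 0.487). Single hours were called for both, with FOXP1 lower at 3 h (-0.40, adjusted p = 0.0252) and 7 h (-0.65, adjusted p = 0.015) and FOXP4 higher at 3 h (0.52, adjusted p = 0.0116).

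None of the 8 other tested genes of the GATA list passed at consecutive times. GATA2, GATA3 and GATA4 had mean log2 effects of 0.05, 0.14 and 0.07 (adjusted p = 0.813, 0.57 and 0.813), beside the -1.10 of GATA6. Of 7 other tested SOX genes, SOX13 rose, at 0.66 (SE 0.08, adjusted p = 3.36e-07), and SOX7, a gene of endoderm and endothelium with at most 19 counts in a library, fell, at -1.66 (SE 0.26, adjusted p = 8.71e-06). SOX4, the most abundant of the list, and SOX21 were called lower in the mean effect but not at consecutive times. They were at -0.26 (SE 0.05, adjusted p = 6.17e-05) and -1.74 (SE 0.39, adjusted p = 0.000771). SOX7 and SOX21 passed the filter only through EtOH, which favoured that direction. In the list of homeobox factors, IRX3 rose (0.91, SE 0.10, adjusted p = 7.43e-09) and HHEX, a foregut endoderm factor, fell (-0.84, SE 0.09, adjusted p = 5.76e-08), out of 10 tested.

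The basal cell list had 4 of 8 tested genes lower and 0 higher. TFAP2A, a factor of surface epithelia, was at -0.83 (SE 0.06, adjusted p = 8.15e-13) and was already at -0.83 at 1 h. TFAP2C was at -0.56 (SE 0.07, adjusted p = 7.12e-07) and DST, which anchors keratin filaments at hemidesmosomes, at -0.35 (SE 0.07, adjusted p = 0.000124). PERP, a desmosome-associated membrane protein and the most abundant gene of the list, was at -0.20 (SE 0.04, adjusted p = 0.000122). KRT5, KRT14 and KRT15, the keratins that define basal cells, had too few counts to be tested, with at most 11 in any library. Their mean levels with EtOH and with dex were 0.07 and 0.43 CPM for KRT5, 0.02 and 0.07 CPM for KRT14 and 0.43 and 0.25 CPM for KRT15.

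The ETS list, to which ELF3 belongs by family, had 2 of 16 tested genes higher and 4 lower. ETV1, ETV5 and ETV4, factors that act downstream of FGF and MAP kinase signalling, were at -0.998 (SE 0.10, adjusted p = 5.61e-09), -0.57 (SE 0.06, adjusted p = 1.54e-08) and -0.38 (SE 0.08, adjusted p = 0.000333). EHF, an epithelial relative of ELF3, was at 0.30 (SE 0.10, adjusted p = 0.0161). At 1 h, ETV1, ETV4 and ETV5 had log2 fold changes of 0.01, 0.20 and 0.04, where ELF3 had -1.14.

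Factors of liver and gut were split, with 3 of 10 tested higher and 3 lower. NR5A2, a nuclear receptor of liver and pancreas, fell by 1.35 on the log2 scale (SE 0.05, adjusted p = 2.63e-19), and MNX1 was at -0.59 (SE 0.13, adjusted p = 0.000589). KLF4 rose at 1 h, by 1.69, and had a mean of 1.42 (SE 0.07, adjusted p = 1.49e-15), and TBX3 had 0.90 (SE 0.04, adjusted p = 2.4e-16). HNF4A was at 0.07 (adjusted p = 0.287).

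Lists of differentiated lung cells held genes called in either direction and genes not called at consecutive times. Of all tested genes, 10.5% were higher and 9.68% lower by that count, and the counts of the airway list were near those shares. Of 7 tested alveolar type 2 genes, 2 were higher and 1 lower. MFSD2A and ABCA3 were also called higher in the mean effect, at 0.88 (SE 0.12, adjusted p = 1.39e-06) and 0.20 (SE 0.07, adjusted p = 0.0392), but not at consecutive times. SLPI, a secreted protease inhibitor that passed the filter only through its dex libraries, which favoured a rise, was at 1.28 (SE 0.21, adjusted p = 1.84e-05), the surfactant lipid enzyme LPCAT1 at 0.33 (SE 0.04, adjusted p = 4.79e-08) and LRRK2 at -0.52 (SE 0.06, adjusted p = 7.01e-08). Alveolar type 1 genes had 3 higher and 1 lower of 6, with EMP2 at 1.24 (SE 0.04, adjusted p = 1.08e-18), the caveolins CAV1 at 0.62 (SE 0.04, adjusted p = 6.45e-14) and CAV2 at 0.27 (SE 0.05, adjusted p = 0.00023), and RTKN2 at -0.66 (SE 0.10, adjusted p = 3.52e-06). In the airway list, 1 of 8 was higher, the ciliary dynein DNAH5 at 0.66 (SE 0.12, adjusted p = 6.8e-05). The 1 lower was the ciliary factor RFX2, at -0.62 (SE 0.13, adjusted p = 0.00026). RFX3 was also called lower in the mean effect, at -0.44 (SE 0.06, adjusted p = 1.57e-06), but not at consecutive times.

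Of 11 tested markers of the A549 epithelium, 6 were higher and 2 lower. KRT8 was at 0.94 (SE 0.06, adjusted p = 6.41e-12), KRT18 at 0.71 (SE 0.05, adjusted p = 1.63e-12) and the mucin MUC1 at 1.28 (SE 0.17, adjusted p = 8.23e-07). The tight junction claudin CLDN7, also among the 6, had 0.12 CPM with EtOH and 1.49 CPM with dex in the mean and passed the filter only through its dex libraries, so its direction was favoured by selection. The 2 lower were the adhesion molecule EPCAM, at -0.55 (adjusted p = 8.05e-06), and the aldo-keto reductase AKR1B10, at -0.175 (adjusted p = 0.000322). The keratin KRT19 was also called in the mean effect, at -0.38 (adjusted p = 0.000614), but not at consecutive times. Among markers of other cell types, 1 of 8 tested was lower, the collagen COL1A1 with a mean effect of -0.54 (SE 0.10, adjusted p = 0.000176). It was called higher at 3 h (0.57, adjusted p = 0.0342) and lower at 5, 7 and 9 h (-1.20, -1.03 and -1.37). Whether COL1A1 and the factors share a source was not tested.

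Over the tested genes of each list, the median of the mean log2 fold changes was -0.17 for the forkhead relatives, 0.01 for the GATA list, 0.06 for the SOX list and -0.16 for the homeobox list. It was -0.22 for the basal cell list, -0.16 for the ETS list and -0.04 for the liver and gut factors. For the alveolar type 2, alveolar type 1 and airway genes it was 0.20, 0.32 and -0.28, for the A549 markers 0.40 and for markers of other cell types -0.30. Over all 15337 tested genes the median was -0.003.

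**Figure D3:**
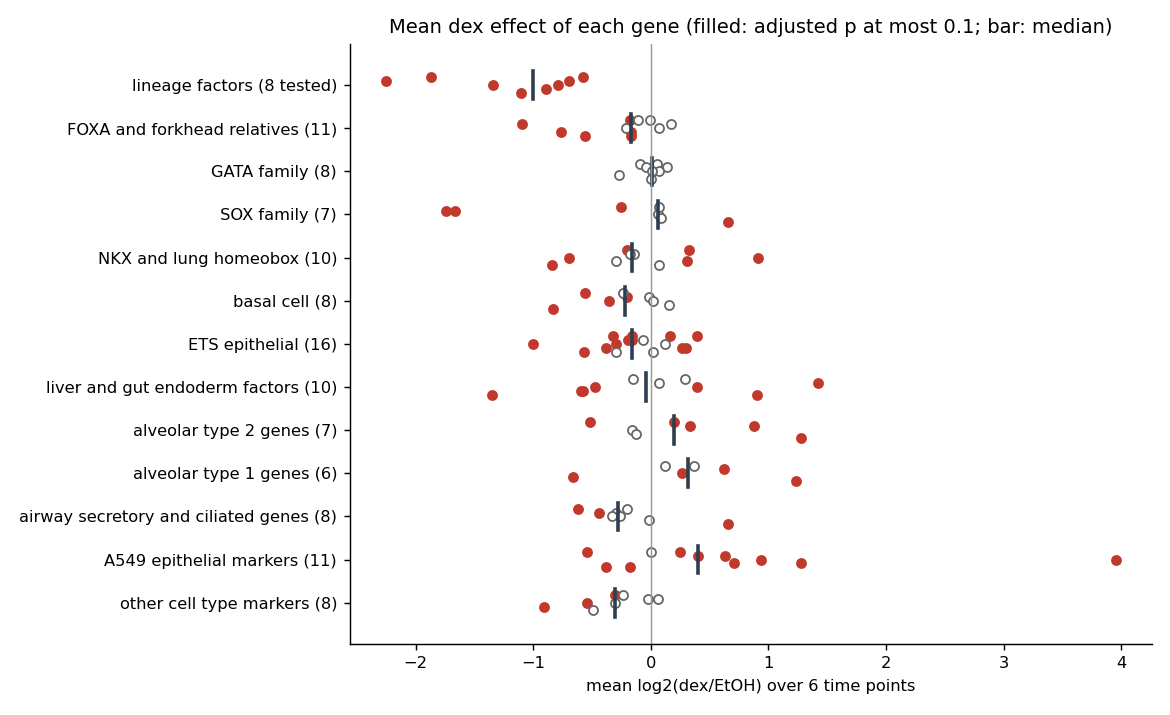
Mean log2 fold change of dex over EtOH across the 6 time points (horizontal axis) for each tested gene of the lineage factors and of 12 lists, 1 point a gene, filled where the adjusted p of edgeR's quasi-likelihood test was at most 0.1, with a bar at the median of each row. The 8 lineage factors all lie left of 0, from -2.25 to -0.58, while most lists have genes on both sides. FOXA3 (-2.25) and SOX2 (-1.34) passed the filter only through EtOH, which favoured that side. The other 6 factors run from -1.87 to -0.58.

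The genes whose levels followed each factor most closely were ranked by Pearson's r of log2 CPM over the 24 libraries, among the 8972 or 8973 genes with a mean of at least 10 CPM. The points share treatment and time, so r describes likeness only. TP63 was closest to BAAT (r = 0.97), ST6GAL2 (0.97) and PDE7B (0.96), and FOXA1 to the chemokine receptor ACKR3 (0.97), the chemokine CCL2 (0.96) and RBM24 (0.96). SOX9 was closest to the Wnt co-receptor LRP6 (0.96), ATP13A3 (0.96) and TM4SF20 (0.96), and FOXA2 to the glycolytic enolase ENO2 (0.96), the hexokinase-related HKDC1 (0.95) and the Hedgehog effector GLI1 (0.94). For ELF3 the first gene was HES1 (0.94), a repressor of the Notch pathway, followed by IER5L (0.91) and GLIS2 (0.88). FOXA3 (GRB10, GLI1 and SRC, 0.86 each) and GATA6 (MLLT11, 0.88, BEND7, 0.87, and DCLK2, 0.86) had weaker best matches. GLI1 was the only gene named for 2 factors, FOXA2 and FOXA3.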

How the data were processed

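The deposited values are counts of reads per transcript. The libraries were stranded and poly-A selected. With Bowtie 0.12.9 the authors aligned 50-base single-end reads to GENCODE 19 and then counted them with samtools 1.3.1. The placement of reads matching several transcripts and the use of strand are not given in the sources used here. Their methods state triplicates, and the labels give 2 replicates. The treatment text of the labels gives 1 h for every library, so the duration was used.

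Transcripts were joined to genes through GENCODE 29 identifiers (94.08% of counts) and summed. Counts were tested with edgeR 4.0.16 (R 4.3.3) after TMM scaling and filterByExpr over the 12 groups, by its robust quasi-likelihood F-test, each time point fitted separately, with Benjamini-Hochberg adjustment over 15337 genes and a threshold of 0.1. SE is the absolute log2 fold change over the root of F. Normalized CPM divides counts by the scaled total. The biological coefficient of variation was 6.53% to 12.67%. The test was checked on simulated counts. Alternatives used DESeq2 1.42.0, other filters, scalings, fits and thresholds, 1 transcript per gene, and each library left out.

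Named genes are the factors, up to 4 genes per list with the largest mean change among those passing at consecutive times with 1 sign in both replicates, the 3 most alike genes per factor, and GR targets. The other genes named are markers, neighbours or relatives given as context after their values were seen. Some genes are not reported here and are left out of the lists' counts. The factors and lists were chosen with earlier results of these data known. Promoters are RefSeq windows of 300 bases, 250 before and 50 after the start (GRCh38.p14). Exact intervals of counts cover counting error only. The interval of ELF3 at 5 h was taken from the SE of its fit.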

Additional observations from a re-analysis of the deposited data

Results flagged for a closer look

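For 5 factors the dex effect differed between the 6 time points by the test of that difference (edgeR's quasi-likelihood F-test over 24 libraries with Benjamini-Hochberg adjustment). ELF3 had an adjusted p of 6.03e-05, with 45.6% of the EtOH level at 1 h and 104.1% at 5 h. TP63 had 0.00037, with 82.5% at 1 h and 16.8% at 11 h. SOX9 had 0.00261, with 106.0% at 1 h and 48.3% at 11 h. FOXA2 had 0.0153, with 77.9% at 1 h and 44.1% at 7 h. FOXA1 had 0.0897, with 84.2% at 1 h and 42.4% at 11 h, and this call was lost in 13 of the 24 fits that left out 1 library.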

How the results depend on the processing

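With at least 10 counts required in every library, which leaves only FOXA1, FOXA2, SOX9 and ELF3, 4 factors were called lower at 3 h, 3 at 5 h, 4 at 7 h and 4 at 9 h, and 4 in the mean over time, because fewer genes were tested. The replicate block gave 2 factors at 1 h, FOXA2 (-0.37, adjusted p = 0.0491) and ELF3, and changed no other call. The authors' methods name a paired EtOH control, but no label ties replicate numbers across treatments. Same-numbered deviations correlated at -0.068 to 0.157, so whether the numbers pair the libraries is not known. Leaving out 1 library gave 1 to 2 factors at 1 h, 6 to 7 at 3 h, 4 to 6 at 5 h, 7 to 8 at 7 h, 5 to 7 at 9 h, 3 to 7 at 11 h, 8 to 8 in the mean, 4 to 6 in the change over time and 0 to 1 over time in EtOH. Signs turned for SOX9 at 1 h (-0.016 to 0.174, lowest without replicate 1 of dex) and ELF3 at 5 h (-0.026 to 0.138, likewise), both uncalled. Over log2 fold changes and mean effects, leaving out 1 library kept 359 values, lost 20 calls, gained 3 (FOXA2 at 1 h, FOXA3 at 3 h and GATA6 at 11 h) and turned 2. In the change over time it lost 13 calls, all of FOXA1, and gained 1, of GATA6. DESeq2 lost 2 calls of 41 values, both of GATA6, gave no adjusted p for 7 values of FOXA3 and SOX2, and its size factors in edgeR lost none of 56. One transcript per gene lost 2 calls (FOXA3 at 5 h and ELF3 at 11 h). One fit over 24 libraries lost 1 (FOXA3 at 5 h) and gained 2 (SOX2 at 5 h and 11 h). A threshold of 0.05 lost 5 of the 56 fold changes and mean effects (FOXA3 at 5 h and 9 h, SOX2 at 3 h and 7 h, ELF3 at 11 h) and also the FOXA1 change over time. Without a filter, the FOXA3 call at 5 h was lost (adjusted p = 0.103), and NKX2-1 was called in the mean effect (2.49, SE 1.07, adjusted p = 0.0967), on counts under the floor. Over all genes, edgeR called 159, 2184, 3834, 4342, 3021 and 1394, and DESeq2 1208 at 3 h, 2348 at 5 h, 2464 at 7 h and 1831 at 9 h. At 1 h no filter gave 250 and the block 579 and leaving out 1 library 88 to 703, and at 9 h 1436 to 5304. One fit over 24 libraries gave 2478 at 11 h, where leaving out 1 library gave 711 to 4940. With the length of the longest transcript, the level per kilobase was 1.75 for TP63 and 18.2 for ELF3, in the same order. By the 6 mean log2 fold changes, the likeness of PDE7B to TP63 ranked 1, while that of the genes named for GATA6 ranked 185 to 679. For ELF3, HES1 ranked 52, IER5L 462 and GLIS2 585, and for FOXA3, GLI1 ranked 100, SRC 116 and GRB10 644. The causes of other changes were not tested. At 2 libraries a group, differences of FOXA3, SOX2 and NKX2-1 rest on few counts.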
